A study of Mus musculus with 6 samples.

Results

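The genes described are 10 components of signalling by transforming growth factor beta (TGF-beta) and its relatives, the bone morphogenetic proteins (BMPs), and they were taken by symbol from a table of 26529 mouse genes. They comprise the receptor genes Tgfbr1 and Tgfbr2, the signal-carrying SMADs Smad2, Smad3 and Smad4, the inhibitory SMADs Smad6 and Smad7, and the ID factors Id1, Id2 and Id3. All 10 symbols were found, once each, and no other gene of the table had an exon that overlapped theirs on either strand. RNA-seq was available from 3 libraries labelled OC (osteoclasts, the multinucleated cells that resorb bone, culture day 6) and 3 labelled OCP (osteoclast precursors, culture day 3). Both groups were wild-type C57BL/6 bone marrow-derived macrophages from mice aged 8 weeks, and both received M-CSF (macrophage colony-stimulating factor) at 20 ng/ml and RANKL, the cytokine that drives osteoclast formation, at 10 ng/ml. Whether the replicates of a group are different mice or culture wells is not stated. The p-values therefore reflect only how far these libraries scatter, and that scatter may be technical. OC and OCP stand for the libraries with those labels throughout.

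TGF-beta binds the type II receptor TGFBR2, which recruits and phosphorylates the type I receptor TGFBR1. The type I receptor phosphorylates SMAD2 and SMAD3, which join SMAD4 and act on genes in the nucleus, while SMAD7 and SMAD6 block this relay at the receptors. ID proteins have a helix-loop-helix domain but no DNA-binding region, so they sequester other helix-loop-helix factors, and their genes are classical targets of BMP signals through SMADs. In bone, TGF-beta is stored in the matrix and released by resorption, and ID proteins are known as inhibitors of osteoclast formation.

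Library totals lay between 33219178 and 42121216 reads assigned to genes. The labels were checked against marker genes. All 11 osteoclast markers (among them Ctsk, Acp5 and Nfatc1) were lower in the libraries labelled OC, with a summed level of 3782 to 3933 RPKM in OC and 7464 to 7664 RPKM in OCP, so the markers go against the order that the labels give. Whether the labels of both groups were exchanged cannot be told from the files, and if they were, every direction and every ratio of OC to OCP given here would turn round. Macrophage markers were higher in 6 of 8 cases and lower in 2, Csf1r and Cd68, where 23.5% of all tested genes were higher and 32.1% lower. Of the 6, Mrc1 and Cx3cr1 reached 1 RPKM in OC alone, so they had to differ. The sums over the 8 genes overlapped, at 1271 to 1354 RPKM in OC and 1250 to 1312 RPKM in OCP. Markers of other cells were at 3.84 to 4.60 RPKM in OC and 4.04 to 4.32 RPKM in OCP, summed over 9 stromal genes, and at 2.27 to 2.68 RPKM in OC and 2.66 to 2.96 RPKM in OCP, summed over 7 endothelial genes. The sums over 5 dendritic genes were 1.15 to 1.17 RPKM in OC and 1.33 to 1.51 RPKM in OCP, and over 4 lymphocyte genes they were at most 0.0681 RPKM in OC and 0.0173 RPKM in OCP. Of these 4 lists, only Acta2 (stromal) and Kdr (endothelial) passed the filter on low values, and limma called 0 of them, with 0 at an unadjusted p under 0.05. In the fit with no filter, Xcr1 (dendritic, lower in OC) had an unadjusted p = 0.015 (adjusted p = 0.057 in limma) and Cd79a (lymphocyte, higher in OC) an unadjusted p = 0.04 (adjusted p = 0.12 in limma), and limma-voom called 1 stromal gene higher and 1 stromal and 1 dendritic gene lower. Immediate early and heat shock genes summed to 234 to 246 RPKM in OC and 116 to 123 RPKM in OCP. Most of that difference came from Atf3, at 123 ± 7.18 RPKM in OC and 19.8 ± 1.03 RPKM in OCP. Of the 8 tested genes of this list, 5 were called higher, 1 lower and 2 not called. Neutrophil genes summed to 41.1 to 45.4 RPKM in OC and 29.8 to 31.7 RPKM in OCP. Limma called 2 of 2 tested neutrophil genes higher, S100a8 and S100a9 (adjusted p = 0.00097 and 0.00062), and limma-voom called 3 higher. Ltf was also higher in the fit with no filter (adjusted p = 0.0055 in limma). The part of these markers in the results below was not tested. In bulk RNA, fewer cells of a type and less RNA per cell cannot be told apart.

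Both receptor genes fell, Smad3 and Smad4 rose, Smad7 fell, Id1 and Id2 rose and Id3 fell in OC, whereas Smad2 did not pass the test. The values are RPKM, reads scaled to the exon length of a gene and to the assigned reads of a library. OC was compared with OCP by limma on log2(RPKM + 1), and a gene was called at a Benjamini-Hochberg adjusted p under 0.05 over the 12301 genes that reached 1 RPKM in 3 or more libraries. Of the 9 members tested, 4 were higher and 4 lower, where 55.6% of all tested genes were called (23.5% higher and 32.1% lower). Smad3 passed the filter through its OC libraries alone, so it had to differ, and Smad6 was under the filter. Without Smad3, 3 of the 8 tested members were higher and 4 lower. The values of the groups did not overlap for 7 of these 8, against 62.7% of all tested genes. Id1, which is among the 3, reached 1 RPKM in its OC libraries and in OCP replicate 1 only. Its OC libraries were thus needed for it to pass the filter, and with no filter it had adjusted p = 0.0069 in limma. In the fit with no filter, which holds all 10 members and also genes that were hardly detected, 4 members were higher and 4 lower, where 26.3% of 26529 genes were called (12.2% higher and 14% lower). The median log2 fold change in that fit was -0.11 over the 10 members and 0.00 over all genes.

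**Figure D1:**
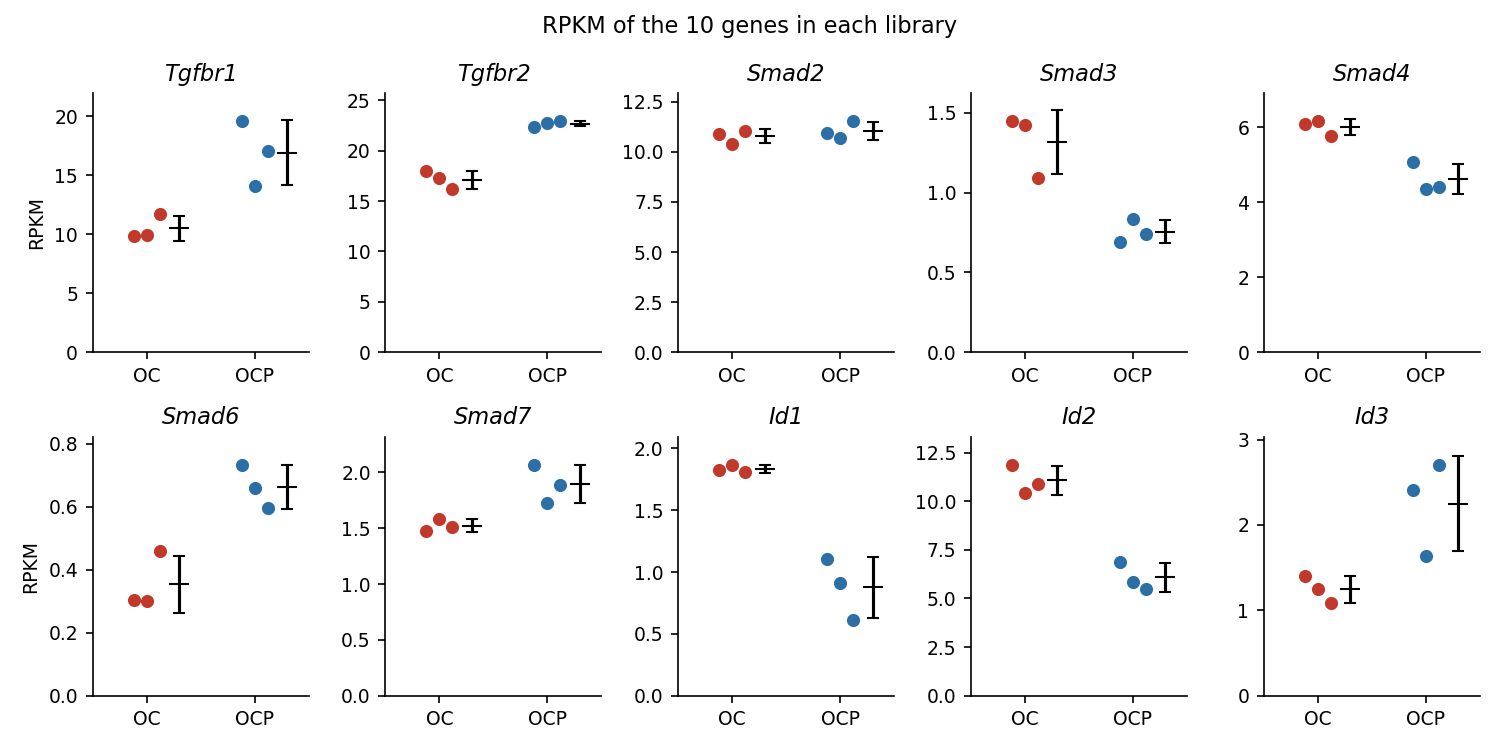
RPKM of each of the 10 genes in the 3 OC libraries (red) and the 3 OCP libraries (blue), with the group mean and SD beside the points in black; each panel has its own axis from 0. OC points lie apart from OCP points in every panel but that of Smad2, above for Smad3, Smad4, Id1 and Id2 and below for the others.

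Tgfbr1, which encodes the type I receptor kinase, is a plus-strand gene of chromosome 4 (47353222 to 47414931, GRCm38 as for all positions here). It had 9.82, 9.96 and 11.7 RPKM in the OC libraries, against 19.6, 14.1 and 17.1 RPKM in the OCP libraries. Every OC library was below every OCP library, and the OCP libraries were spread more widely (10.5 ± 1.05 RPKM in OC and 16.9 ± 2.75 RPKM in OCP, SD, n = 3 each). It fell by 0.63 on the log2 scale (SE 0.12, adjusted p = 0.0028 in limma), a mean in OC that was 0.621 of that in OCP.

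Tgfbr2, the type II receptor and ligand-binding partner, is a minus-strand gene of chromosome 9 (116084293 to 116175360). It had 17.9, 17.3 and 16.2 RPKM in OC, against 22.4, 22.7 and 22.9 RPKM in OCP. The OCP libraries were tightly grouped and all above the OC libraries. The fall was smaller than that of Tgfbr1 in size, with a log2 fold change of -0.39 (SE 0.05, adjusted p = 0.00039 in limma) and a mean in OC 0.755 of that in OCP. The difference between both falls was not tested. The ratio of Tgfbr2 to Tgfbr1 RPKM was 1.83, 1.74 and 1.38 in OC and 1.14, 1.62 and 1.34 in OCP, ranges that overlapped. Together both receptors summed to 27.6 ± 0.337 RPKM in OC and 39.6 ± 2.6 RPKM in OCP.

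Since both receptor genes were lower in OC, the 250 bases before their annotated starts are shown, from RefSeq on GRCm38.p6 and written from 5′ to 3′ on the strand of the gene. Capitals mark CAGAC, a box bound by SMAD3 and SMAD4, and GGCGCC, a GC-rich element known from BMP-responsive genes, searched on both strands. The windows are chr4:47352972-47353221 (plus strand) and chr9:116175364-116175613 (minus strand).
Tgfbr1: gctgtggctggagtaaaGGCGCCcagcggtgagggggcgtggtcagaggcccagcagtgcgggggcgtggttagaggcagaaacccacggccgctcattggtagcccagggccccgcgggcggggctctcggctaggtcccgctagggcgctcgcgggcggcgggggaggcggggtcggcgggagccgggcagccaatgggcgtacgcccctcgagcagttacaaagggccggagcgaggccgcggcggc
Tgfbr2: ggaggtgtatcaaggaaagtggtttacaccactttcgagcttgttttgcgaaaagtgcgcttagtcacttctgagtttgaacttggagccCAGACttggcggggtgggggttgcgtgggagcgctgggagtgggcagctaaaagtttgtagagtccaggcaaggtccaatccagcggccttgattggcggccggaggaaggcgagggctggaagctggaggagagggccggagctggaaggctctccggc

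The Tgfbr1 window held 1 GGCGCC, which begins 233 bases before the start, and the Tgfbr2 window held 1 CAGAC, 160 bases before the start. Of all 32851 RefSeq windows of this length, 9.59% held GGCGCC and 42.2% held CAGAC. In all, 7 windows of 6 members were analysed. Windows on chromosome 18, where Smad2, Smad4 and Smad7 lie, were left out, and Id1 had no window. A second Tgfbr1 window, before an internal start, held CAGAC, and those of Smad3 and Smad6 held neither motif. The windows of Id2 and Id3 were largely or wholly transcribed: 161 of the 250 bases for Id2 and all 250 bases for Id3 are exon in GENCODE M21, and the Id3 window lies inside the gene. They held 1 GGCGCC in Id2 and 2 CAGAC in Id3. The motifs overlapped in 0 of the 7 windows. The GC content was 74.8% in the first Tgfbr1 window and 58.4% in the Tgfbr2 window.

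The receptor-activated SMADs differed from each other. Smad2, on chromosome 18 (76241580 to 76305731, plus strand), had 10.9, 10.4 and 11.0 RPKM in OC and 10.9, 10.7 and 11.5 RPKM in OCP, so the groups overlapped. Its log2 fold change was -0.03, with a 95% interval from -0.15 to 0.09 (adjusted p = 0.63 in limma). The estimate changed its sign under TMM factors and in a fit on reads, at 0.01 in both, and passed under none of the settings tried.

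Smad3, the close relative that binds DNA directly, lies on chromosome 9 (63646767 to 63757994, minus strand) and was far less abundant. It had 1.45, 1.42 and 1.09 RPKM in OC (281, 262 and 230 reads), against 0.69, 0.836 and 0.742 RPKM in OCP (161, 184 and 151 reads). All OC libraries were above all OCP libraries, and the third OC library was the lowest of its group. The mean was 1.75 times that of OCP, and the log2 fold change of RPKM + 1 was 0.40 (SE 0.08, adjusted p = 0.0045 in limma, and 0.015 with no filter). The added 1 RPKM understates changes at such levels: on recovered whole reads, limma-voom gave 0.84 (SE 0.14, adjusted p = 3.5e-05). That fit called 52.1% of 15802 genes (26.9% higher and 25.1% lower). The rise did not pass after quantile normalization (0.25, adjusted p = 0.0526). Without OC replicate 1, 2 or 3 Smad3 was under the filter, and the fits with no filter gave adjusted p = 0.0494, 0.0491 and 0.0087.

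Smad2 was the more abundant of the pair in every library, by a smaller factor in OC. The ratio of Smad2 to Smad3 RPKM was 7.53, 7.28 and 10.1 in OC, against 15.8, 12.8 and 15.5 in OCP. The third OC library lay between the rest of its group and the OCP libraries. Smad4, the common partner of all signal-carrying SMADs, lies on chromosome 18 (73639009 to 73703780, minus strand). It had 6.08, 6.16 and 5.76 RPKM in OC and 5.08, 4.36 and 4.40 RPKM in OCP, with no overlap. Its log2 fold change was 0.32 (SE 0.07, adjusted p = 0.0044 in limma), and it passed under each of the 15 other settings (adjusted p from 0.00017 to 0.021). Summed, Smad2, Smad3 and Smad4 came to 18.1 ± 0.302 RPKM in OC and 16.4 ± 0.472 RPKM in OCP.

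Both inhibitory SMADs had lower values in OC, and neither call held under every setting. Smad7, which blocks type I receptors and is itself induced by TGF-beta in many cells, lies on chromosome 18 (75367529 to 75395935, plus strand). It had 1.48, 1.58 and 1.51 RPKM in OC, against 2.07, 1.73 and 1.89 RPKM in OCP. The groups did not overlap, but OCP replicate 2 was close to the OC libraries. The log2 fold change was -0.20 (SE 0.07, adjusted p = 0.042 in limma). The call was lost with no filter (adjusted p = 0.072), with TMM factors (adjusted p = 0.068), in limma-voom (adjusted p = 0.052), and without any of OC replicates 1, 2 and 3 or OCP replicates 1 and 3 (adjusted p from 0.07 to 0.12). Without OCP replicate 2 it passed (adjusted p = 0.033).

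Smad6, the inhibitor that acts mainly on BMP signals, lies on chromosome 9 (63953076 to 64022059, minus strand) and had the lowest mean level of the 10 genes in both groups. In OCP its range overlapped those of Smad3 and Id1. Smad6 had 0.303, 0.301 and 0.458 RPKM in OC (34, 32 and 56 reads), against 0.733, 0.66 and 0.594 RPKM in OCP (99, 84 and 70 reads). The groups did not overlap, and the third OC library and the third OCP library were nearest to each other. In the limma fit with no filter, it had a log2 fold change of -0.30 (SE 0.07, adjusted p = 0.026), and limma-voom gave -0.86 (SE 0.24, adjusted p = 0.0036). Without OC replicate 1 or 2, or without OCP replicate 1, 2 or 3, it did not pass in the fit with no filter (adjusted p from 0.0505 to 0.08), and without OC replicate 3 it did (adjusted p = 0.02).

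The ratio of receptor-activated to inhibitory SMADs was higher in OC, although Smad2, the more abundant gene of the numerator, was not called. The sum of Smad6 and Smad7 was 1.88 ± 0.093 RPKM in OC and 2.56 ± 0.217 RPKM in OCP. Neither of these 2 falls passed under every setting, and SMAD6 acts mainly on BMP signals. The ratio of summed Smad2 and Smad3 to summed Smad6 and Smad7 RPKM was 6.93, 6.25 and 6.16 in OC, against 4.14, 4.82 and 4.94 in OCP. All OC ratios were above all OCP ratios, and this is a description of transcript levels with no test.

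**Figure D2:**
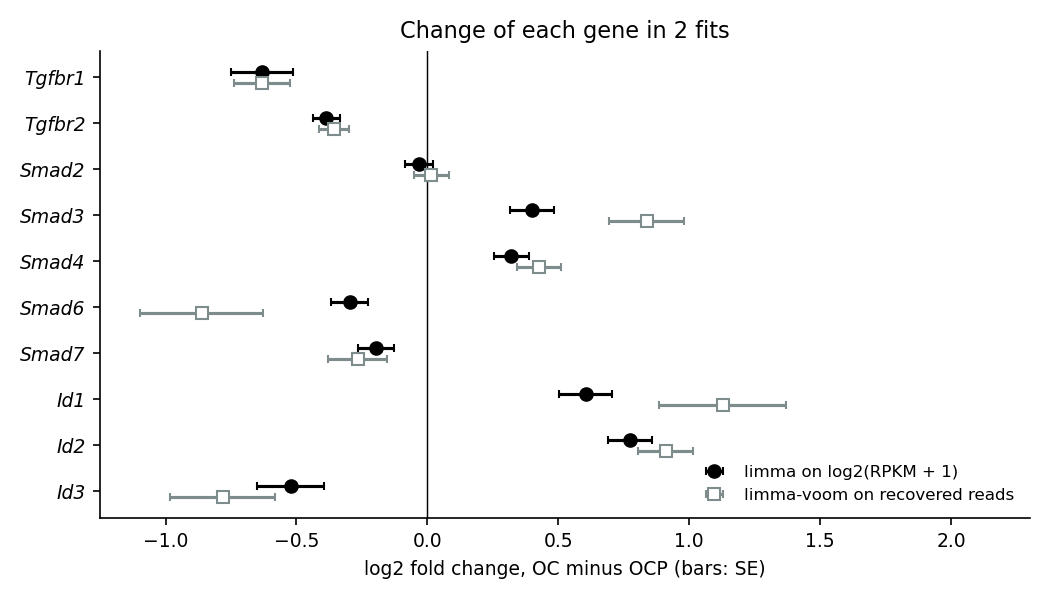
Log2 fold change of each gene, OC minus OCP, with its SE, from limma on log2(RPKM + 1) (filled circles, the fit with no filter for Smad6) and from limma-voom on recovered reads (open squares). The estimates of Smad3, Smad6, Id1 and Id3, which are low, lie farther from 0 on reads, while those of Tgfbr1 and Tgfbr2 are close in both fits.

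The ID factors moved in opposite directions. Id2, which is needed for several lymphoid and dendritic lineages, lies on chromosome 12 (25093801 to 25096092, minus strand). It had 11.9, 10.5 and 10.9 RPKM in OC, against 6.90, 5.87 and 5.49 RPKM in OCP. The groups were clearly apart, with 441 to 528 reads per OC library. Id2 averaged 11.1 ± 0.73 RPKM in OC and 6.09 ± 0.73 RPKM in OCP (SD, n = 3 each), and its log2 fold change of 0.77 (SE 0.08, adjusted p = 0.00014 in limma) was the largest of the 10 genes on this scale. This change was larger in absolute size than 92.6% of those of all tested genes.

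Id1, the BMP target gene on chromosome 2 (152736251 to 152737410, plus strand), had 1.82, 1.87 and 1.81 RPKM in OC (74, 72 and 80 reads), against 1.11, 0.912 and 0.61 RPKM in OCP (54, 42 and 26 reads). The OC libraries lay close together and all above the OCP libraries, which were spread more widely. The mean was 2.09 times that of OCP, with a log2 fold change of RPKM + 1 of 0.60 (SE 0.10, adjusted p = 0.0013 in limma) and of 1.13 on reads (SE 0.24, adjusted p = 0.00042 in limma-voom).

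Id3, on chromosome 4 (136143497 to 136145755, plus strand), went the other way. It had 1.40, 1.24 and 1.08 RPKM in OC (88, 74 and 74 reads), against 2.41, 1.63 and 2.71 RPKM in OCP (182, 116 and 178 reads). OCP replicate 2 was the lowest of its group but still above all OC libraries. The log2 fold change was -0.52 (SE 0.13, adjusted p = 0.0094 in limma) and -0.78 on reads (SE 0.20, adjusted p = 0.0022 in limma-voom). Id1, Id2 and Id3 each passed under every other setting in which they were tested.

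Id2 made up most of the ID transcripts per length in both groups. It was 78.2 ± 1.03% of the summed RPKM of Id1, Id2 and Id3 in OC and 66.1 ± 3.72% in OCP (SD, n = 3 each). Id3 was 8.78 ± 0.791% in OC and 24.4 ± 5.78% in OCP, and Id1 was 13.0 ± 0.862% in OC and 9.46 ± 2.19% in OCP. The sum of all 3 was 15.1, 13.6 and 13.8 RPKM in OC, against 10.4, 8.41 and 8.80 RPKM in OCP, with no overlap. The ratio of Id2 to Id3 was 8.46, 8.40 and 10.0 in OC, against 2.86, 3.60 and 2.03 in OCP. The ratio of Id2 to Id1 overlapped between the groups, at 5.59 to 6.52 in OC and 6.24 to 8.99 in OCP. The fourth family member, Id4, was detected in 1 OC and 1 OCP library only, at 0.0363 and 0.0328 RPKM.

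**Figure D3:**
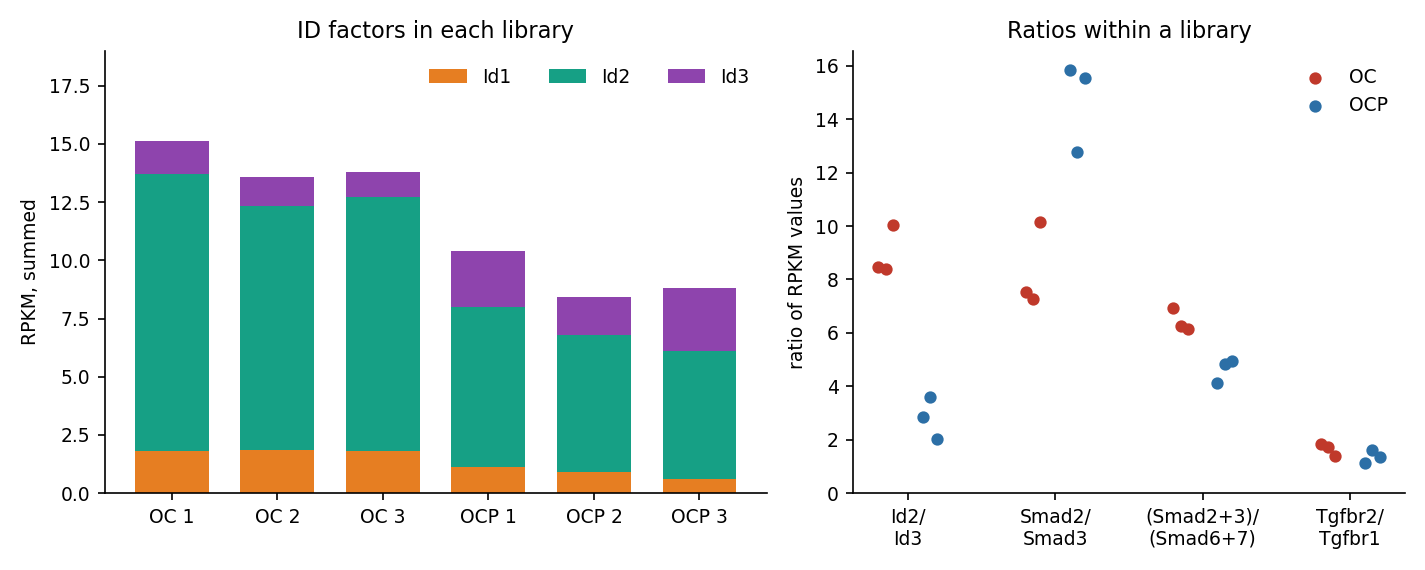
Left, RPKM of Id1, Id2 and Id3 stacked for each library; right, ratios of RPKM values within each library, OC in red and OCP in blue. The Id2 share and the sum are higher in the OC libraries, the Id2 to Id3 ratio is 8.40 to 10.0 in OC and 2.03 to 3.60 in OCP, and the Tgfbr2 to Tgfbr1 ratio overlaps between the groups.

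The order of the levels per length differed between the groups. In OC, Tgfbr2 was highest, followed by Id2, Smad2 and Tgfbr1, whose ranges overlapped, then Smad4, Id1 and Smad7, then Smad3 and Id3, which overlapped, and last Smad6. In OCP, Tgfbr2 was followed by Tgfbr1, Smad2, Id2 and Smad4 without overlap, then Id3 and Smad7, which overlapped, and then Id1, Smad3 and Smad6, each of which overlapped the next. Among all tested genes, the OC level of Tgfbr2 was above that of 73.4% and the OC level of Smad3 above that of 6.9%. In OCP these shares were 78.3% for Tgfbr2 and 2.33% for Smad3.

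Counts for the lists around these genes stand against the same shares of all tested genes, 23.5% higher and 32.1% lower, and a median log2 fold change of -0.05. Since 55.6% of all tested genes were called, a list with many calls is not set apart by them. Of 11 other receptors listed, 6 were tested, 4 were called higher and 1 lower, with a median log2 fold change of 0.20. The 4 and the median include Bmpr1a, which had to differ, as given below. In the fit with no filter, 2 of the list were higher and 1 lower, where 12.2% of all genes were higher and 14% lower. The list holds the other type I and type II receptors and the co-receptors. Bmpr1a, a type I receptor for BMPs, had 1.70, 1.59 and 2.02 RPKM in OC, against 0.0972, 0.0555 and 0.154 RPKM in OCP, and passed the filter through its OC libraries alone, so it had to differ. In the fit with no filter its log2 fold change of RPKM + 1 was 1.33 (adjusted p = 0.00012 in limma). Acvrl1, the type I receptor ALK1, named after its values were seen, had 8.24, 7.23 and 7.38 RPKM in OC, against 2.32, 2.93 and 2.51 RPKM in OCP (log2 fold change 1.26, SE 0.08, adjusted p = 9e-06 in limma). ALK1 is best known from endothelial cells. The 7 endothelial markers summed to 2.27 to 2.68 RPKM in OC and 2.66 to 2.96 RPKM in OCP, so their sum was not higher in OC. Any part of such cells in the Acvrl1 values was not tested. The rises of Acvr1b, a type I activin receptor, and Bmpr2, the type II BMP receptor, were not stable. Without OC replicates 1, 2 and 3 in turn, Acvr1b had adjusted p = 0.069, 0.068 and 0.075 and Bmpr2 had adjusted p = 0.071, 0.044 and 0.093 in limma, while Bmpr1a was under the filter. The list then held 1, 2 and 1 called rises. Acvr1, a further type I receptor and the most abundant of the list, fell to 9.64 ± 0.254 RPKM in OC, against 11.6 ± 0.287 RPKM in OCP (adjusted p = 0.0029 in limma).

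Among the SMADs of the BMP branch, 0 of 2 tested passed in limma, 0 had an unadjusted p under 0.05, and limma-voom called 1 higher. Smad1 had 3.38, 3.13 and 3.17 RPKM in OC and 3.44, 3.69 and 3.49 RPKM in OCP (log2 fold change -0.10, SE 0.06, adjusted p = 0.17 in limma). Smad5, named after its values were seen, had 1.62, 1.78 and 1.84 RPKM in OC and 1.60, 1.41 and 1.39 RPKM in OCP (0.16, SE 0.07, adjusted p = 0.087 in limma), and was the one that limma-voom called (0.30, adjusted p = 0.011). Smad9 was under the filter.

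Of 15 ligand genes, 14 were in the table and 3 passed the filter. Tgfb1, the most abundant, had 30.8, 29.5 and 29.7 RPKM in OC and 24.6, 28.9 and 27.6 RPKM in OCP, and did not pass (log2 fold change 0.15, SE 0.06, adjusted p = 0.079 in limma). It passed after quantile normalization (adjusted p = 0.028), with TMM factors (adjusted p = 0.041), in limma-voom (adjusted p = 0.009) and without OCP replicate 2 (adjusted p = 0.034). Inhba, the subunit of activin A, rose to 3.11 ± 0.329 RPKM in OC, against 1.21 ± 0.0137 RPKM in OCP. Gdf15, a distant family member induced by stress, fell to 1.06 ± 0.242 RPKM in OC, against 3.19 ± 0.3 RPKM in OCP. Among genes that store and activate latent TGF-beta, 3 of 8 tested rose and 5 fell, against 23.5% higher and 32.1% lower over all tested genes (median log2 fold change -0.32). Thbs1, the activator thrombospondin 1, rose to 15.6 ± 0.751 RPKM in OC, against 8.77 ± 0.372 RPKM in OCP. The latent-complex gene Ltbp3 fell to 5.99 ± 0.5 RPKM in OC, against 10.6 ± 0.703 RPKM in OCP. Plau, the urokinase and the most abundant of the list, fell to 24.0 ± 0.618 RPKM in OC, against 33.2 ± 2.59 RPKM in OCP. Of 9 secreted or membrane antagonists only 2 were tested. Fstl1, a follistatin-like glycoprotein, fell to 1.05 ± 0.135 RPKM in OC, against 5.13 ± 0.336 RPKM in OCP, and Twsg1 was at 7.50 ± 0.665 RPKM in OC and 8.61 ± 0.679 RPKM in OCP without passing (adjusted p = 0.086 in limma).

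Regulators of SMADs went both ways. Of 22 tested, 7 rose, 8 fell and 7 did not pass, with a median log2 fold change of 0.06. These counts are near the shares over all tested genes (23.5% higher and 32.1% lower). Smurf1, a ubiquitin ligase for SMADs and receptors, had the largest fall, with 12.3, 12.6 and 11.6 RPKM in OC, against 19.3, 19.9 and 19.9 RPKM in OCP (log2 fold change -0.65, SE 0.05, adjusted p = 1.9e-05 in limma). Wwp1, a ubiquitin ligase of the same family, had the largest rise, to 3.28 ± 0.574 RPKM in OC, against 2.11 ± 0.242 RPKM in OCP. Hgs, an endosomal adaptor and the most abundant of the list, fell to 52.4 ± 1.59 RPKM in OC, against 66.5 ± 2.92 RPKM in OCP.

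Genes known as TGF-beta targets in other cells were called higher 8 times and lower 4 times among the 13 that were tested, with a median log2 fold change of 0.37. Over all tested genes, 23.5% were higher and 32.1% lower. The list shares Skil, Tgif1 and Pmepa1 with the regulators and Ltbp3 with the latent-complex genes. Timp1, a metalloproteinase inhibitor and the most abundant of the list, rose to 276 ± 11.4 RPKM in OC, against 84.2 ± 5.5 RPKM in OCP. The cell cycle inhibitor Cdkn2b had the largest fall, to 3.11 ± 0.316 RPKM in OC, against 6.29 ± 0.213 RPKM in OCP. Several of these genes also respond to stress and to other cytokines. Of 8 tested immediate early and heat shock genes, 5 were called higher and 1, Dnajb1, lower. Atf3, the most abundant of them, was at 123 ± 7.18 RPKM in OC and 19.8 ± 1.03 RPKM in OCP. Any link between these genes and the target genes was not tested.

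Among partners and relatives of the ID proteins, 0 of 7 tested genes rose and 2 fell at an adjusted p under 0.05 in limma (median log2 fold change 0.04). Of the 7, 0 had a higher value at an unadjusted p under 0.05, and limma-voom called 1, Tcf4, higher (0.31, adjusted p = 0.00099). The E proteins Tcf3, Tcf4 and Tcf12, the direct partners of IDs, did not pass in limma on RPKM. Tcf3 was at 7.02 ± 0.364 RPKM in OC and 6.52 ± 0.243 RPKM in OCP, named after its values were seen. Mitf, the osteoclast transcription factor and the most abundant of the list, had 11.0, 11.8 and 13.1 RPKM in OC and 11.8, 10.8 and 12.1 RPKM in OCP, which overlapped (adjusted p = 0.64 in limma). Tfeb, a lysosomal regulator of the same family, fell to 4.02 ± 0.308 RPKM in OC, against 5.84 ± 0.522 RPKM in OCP.

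**Figure D4:**
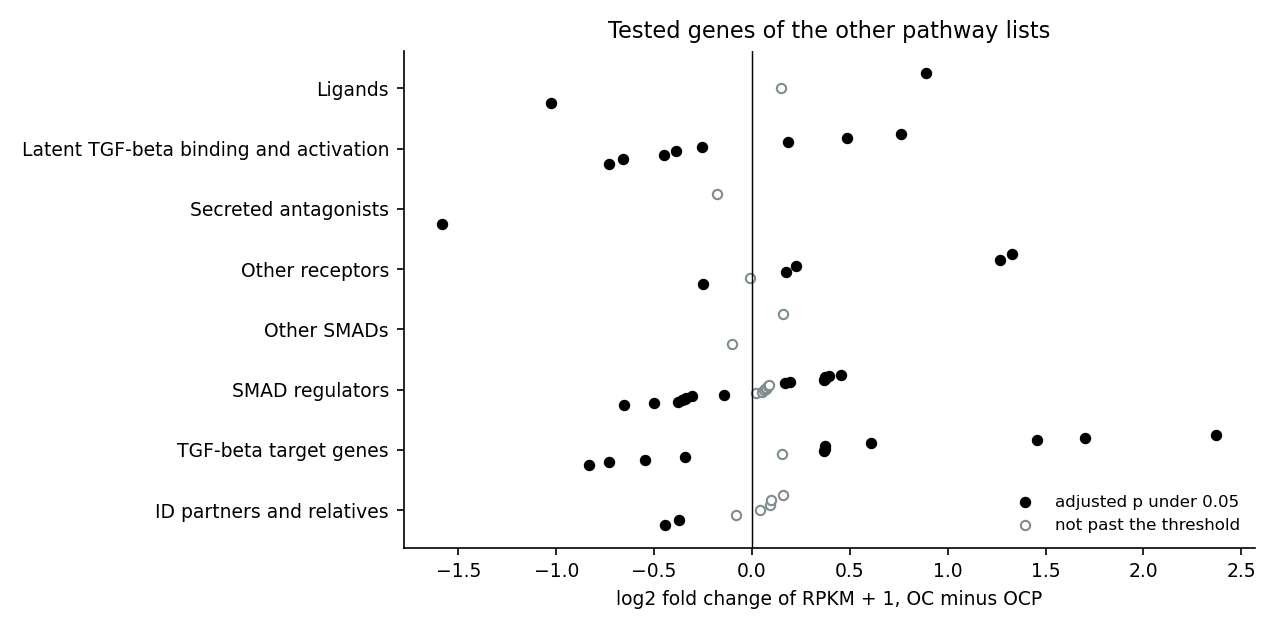
Log2 fold change of RPKM + 1, OC minus OCP, of the tested genes of 8 lists around the 10 genes; each point is a gene, filled where the adjusted p was under 0.05. Fstl1 lies farthest to the left at -1.58, and 5 of the lists hold called genes in both directions.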

How the data were processed

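RNA was extracted with TRIzol and prepared with a stranded mRNA kit, per the labels' protocols. The submitters' processing notes name Trimmomatic 0.36, STAR 2.5.3a and featureCounts. Settings for strand, multimapping reads and PCR duplicates: not given in the sources used here. The notes name the human build GRCh38, but the deposited coordinates are those of mouse genes: 95.8% of symbols matched GENCODE M21, and 22304 rows had the same position on GRCm38. Of the members, Smad2 and Id2 have another span in GENCODE M21. The authors deposited RPKM values, and the deposited gene length allowed whole reads to be recovered for 100% of values within 0.01 reads. Intervals that could be drawn from reads would cover counting error only.

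The two-sided comparison of OC with OCP used limma 3.58.1 (statmod 1.5.0, R 4.3.3) with trend and robust options, on log2(RPKM + 1) of genes that reached 1 RPKM in 3 or more libraries. Smad6 was read from the same fit with no filter. Fold changes on this scale understate changes of low genes. The alternatives changed the pseudocount (0.1, 0.01), the filter (none, or a 5 RPKM mean), the scaling (TMM factors, quantiles), the options (trend and robust off), the block (replicate number) or the libraries (each left out). A further one ran limma-voom on recovered reads of genes with 10 or more on average. Fits with no filter for members that fell under it were added after seeing the data. The steps were run on simulated reads, with the same spread setting for all genes and few changed genes. Neither need hold in these libraries, so that run does not bear on the calls given here. All 10 members are described. Of each other list, the called genes with the largest rise and fall and the most abundant gene are named, and others are said to be named after their values were seen. One target gene that this rule picks is not reported here, and it is left out of the plot of the lists but not of the counts. The members and lists were chosen with earlier results of these data known. Python 3.11.15, pandas 2.3.3, numpy 2.4.6 and matplotlib 3.10.9 were used for tables and plots.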

Additional observations from a re-analysis of the deposited data

How the results depend on the processing

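Tgfbr1, Tgfbr2, Smad4, Id1, Id2 and Id3 kept their direction and passed under every alternative in which they were tested. Smad3 kept its direction too, but it passed the filter through its OC libraries alone. Its groups therefore had to lie apart there, which favours a call without fixing it. It did not pass after quantile normalization (0.25), and its fits without single OC libraries had no filter and were not planned. The log2 fold changes of Smad7 that did not pass were -0.20 with no filter, -0.17 with TMM factors, -0.27 by limma-voom and -0.15 to -0.21 without single libraries, and it was -0.24 without OCP replicate 2, where it passed. Those of Smad6, with no filter, were -0.27 to -0.33 in the cases that did not pass and -0.35 without OC replicate 3. With a mean of at least 5 RPKM, 2 members were higher and 2 lower, and 1645 genes were higher, because fewer genes were tested. Limma-voom called 4258 genes higher and 3969 lower. TMM factors moved the median log2 fold change of all genes by 0.04. Among the other lists, limma-voom called 2 ligands higher and 2 antagonists lower, where limma on RPKM called 1 of each. Where no value shows the cause of a change, the cause was not tested.

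The deviations of same-numbered libraries from their group means correlated at -0.11, 0.14 and 0.01. Other pairs correlated at -0.28 (OC replicate 3 with OCP replicate 2) to 0.26 (OC replicate 3 with OCP replicate 1). With so few libraries per group such deviations are tied to each other, so whether same-numbered libraries are paired cannot be told from them. With the replicate number as a block, 2827 genes were higher and 3851 lower, Smad7 (-0.20, adjusted p = 0.077) and Smad6 (-0.30, adjusted p = 0.082) did not pass, and the other member calls stayed. Depth limits Smad6 and Id1 most, with as few as 32 and 26 reads in a library.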

Other observations

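Some genes of these lists lay under the filter and passed in the limma fit with no filter, where 26.3% of genes were called. They were named after their values were seen. Tgif2, a SMAD corepressor, was at 0.875 ± 0.132 RPKM in OC and 0.332 ± 0.0545 RPKM in OCP (log2 fold change of RPKM + 1 of 0.49, adjusted p = 0.0041). Grem1, a secreted BMP antagonist, was at 0.144 ± 0.0467 RPKM in OC and 0.326 ± 0.0162 RPKM in OCP (-0.21, adjusted p = 0.029). Fn1, the fibronectin gene, was at 0.998 ± 0.0695 RPKM in OC and 0.713 ± 0.0524 RPKM in OCP (0.22, adjusted p = 0.038).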
